A study of Mus musculus with 8 samples.

Results

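The 9 interferon-stimulated genes described here are Isg15, Usp18, Irf7, Bst2, Ifitm3, Oasl2, Rsad2, Ifit1 and Ifit3. All 9 are present among the 22558 genes of the expression table. The set was chosen by the FPKM of Isg15 and Usp18 at day 4, which were lower in Oct6-induced cells, so every day 4 difference of the 9 genes is given as a description and carries no test. Mouse embryonic stem cells, of lines named R1 and R1/E and kept on feeder cells, were differentiated as embryoid bodies. The tested arm carried an inducible Oct6 (Pou3f1) gene switched on with doxycycline, and the other arm was labelled control. RNA of each arm was sequenced at day 2, day 4 and day 6, with 1 library per arm and day, 6 libraries in all. The titles of all 6 begin with fbs, a prefix that the labels do not explain. In addition, 1 ChIP library and 1 input library came from cells overexpressing Oct6 at day 4. Doxycycline is named for the induced libraries alone and the line of each arm is not stated, so effects of the drug, the line and Oct6 cannot be told apart. No comparison within a day has a replicate check.

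Interferons are secreted proteins that bind receptors on the cell surface. The receptors signal through Jak kinases to transcription factors, among them Stat2 and Irf9, which switch on a broad set of antiviral genes through a DNA element built of GAAA repeats. Pluripotent stem cells are known for a weak interferon response that becomes stronger as they differentiate. Isg15 codes for a ubiquitin-like protein that is attached to other proteins, and Usp18 for the protease that takes it off again and also damps the receptor.

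Pou3f1 served as the check of the labels. It had 312, 222 and 86.8 FPKM (fragment numbers scaled by transcript length and library depth) at days 2, 4 and 6 of induction, against 64.3, 10.1 and 4.76 FPKM in control cells. Steps in the weakest values gave depths of 0.686 to 1.48 relative to control day 2, or an estimated 21600000 to 46600000 fragments per library, with control day 4 the deepest. Differences below are induced minus control on the scale log2(FPKM + 1), which understates those of weakly expressed genes. A gene counted as 2-fold different on a day when it had at least 1 FPKM in either library and differed by at least 1 on this scale. Over all genes at that level the median differences of days 2, 4 and 6 were 0.17, 0.10 and 0.06. Scaling to a common median ratio moved the differences of single genes by a median of -0.15, -0.10 and -0.06. Quantile normalisation moved them by a median of -0.24, -0.14 and -0.06. Shares of all genes past 2-fold were computed without these scalings, so they do not apply to counts of rescaled values.

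The promoters of 8 members were found in RefSeq's table of windows from 250 bases before to 50 bases after the gene start (GRCm38.p6). Usp18 has no entry there. The motif GAAA, any NN, GAAA, the paired repeat bound by interferon-activated factors, was searched on both strands. It was present in 6 of the 8 windows, against 3.44% of all 32851 windows in the table. The shorter core GAAANNGAA gave the same number of members, against 8.56% of all windows. The octamer ATGCAAAT, a sequence bound by POU factors, was in 0 of the 8 windows and in 1.74% of all windows. Neither search says whether a factor binds there.

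Shown next are the 250 bases before the start of a gene with clustered repeats and a strong day 4 difference (Isg15), of an abundant member (Bst2), of a gene with the motif but little transcript (Rsad2) and of a gene that differed without the motif (Oasl2). Each is written on the strand of its gene, and capitals mark the paired GAAA repeat on either strand. The positions are chr4:156200819-156201068 for Isg15 and chr8:71537473-71537722 for Bst2, both on the minus strand, chr12:26456453-26456702 for Rsad2, also minus, and chr5:114896684-114896933 for Oasl2 on the plus strand.
Isg15: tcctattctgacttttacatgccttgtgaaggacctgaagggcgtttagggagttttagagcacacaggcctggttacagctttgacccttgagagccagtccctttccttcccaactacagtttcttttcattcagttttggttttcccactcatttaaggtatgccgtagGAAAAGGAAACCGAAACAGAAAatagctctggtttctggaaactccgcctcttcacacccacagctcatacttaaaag
Bst2: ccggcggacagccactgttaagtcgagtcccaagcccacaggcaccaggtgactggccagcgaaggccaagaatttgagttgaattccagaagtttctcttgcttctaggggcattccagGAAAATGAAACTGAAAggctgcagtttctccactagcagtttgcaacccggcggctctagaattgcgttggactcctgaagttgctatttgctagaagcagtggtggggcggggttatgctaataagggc
Rsad2: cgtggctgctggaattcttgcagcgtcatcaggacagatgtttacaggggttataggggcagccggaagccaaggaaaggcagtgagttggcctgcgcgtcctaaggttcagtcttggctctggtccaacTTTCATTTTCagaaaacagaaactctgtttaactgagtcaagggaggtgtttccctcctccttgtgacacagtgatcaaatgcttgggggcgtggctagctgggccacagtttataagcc
Oasl2: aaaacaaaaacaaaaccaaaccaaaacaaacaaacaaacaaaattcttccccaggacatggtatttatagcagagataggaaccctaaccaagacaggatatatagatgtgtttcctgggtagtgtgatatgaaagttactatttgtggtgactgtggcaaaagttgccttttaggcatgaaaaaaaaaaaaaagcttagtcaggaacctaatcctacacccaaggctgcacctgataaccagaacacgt

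In Isg15 there were 3 overlapping matches on the gene strand, between 78 and 57 bases before the start. Bst2 had 2 overlapping matches between 130 and 115 bases before the start. Rsad2 had 1 match on the opposite strand, read as paired TTTC in the printed sequence, from 120 to 111 bases before the start. Ifit1 and Ifit3 each had 2 matches on the opposite strand, and Ifitm3 had 2 within the first 29 bases after its start. Irf7 and Oasl2 had none. The motif was thus in genes with very different levels in these libraries, from below 0.4 FPKM in Rsad2 to above 30 FPKM in Bst2.

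**Figure D1:**
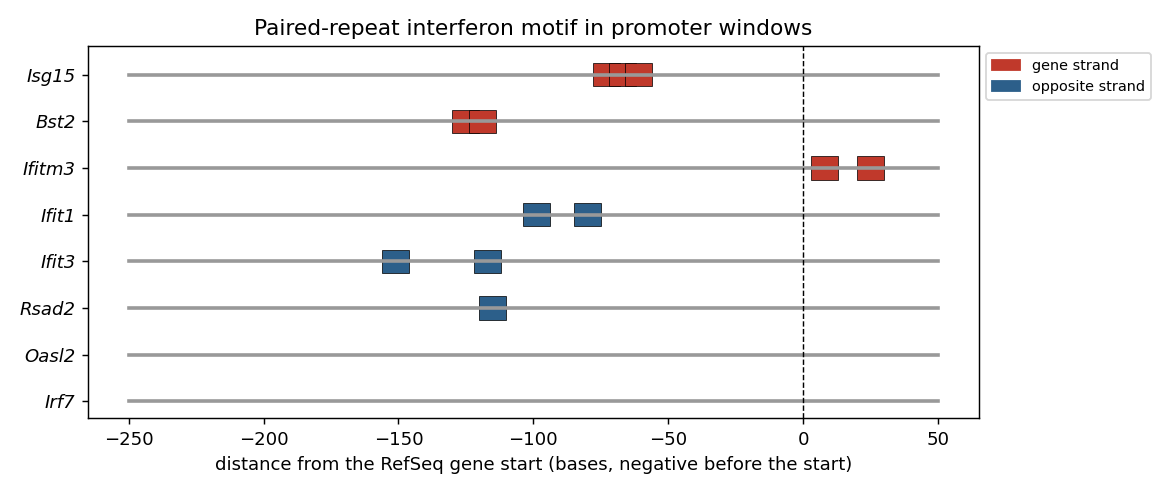
Position of paired GAAA repeats in the promoter windows of 8 members. The horizontal axis is the distance in bases from the RefSeq start, boxes are matches and their colour gives the strand. Matches lie within 156 bases before the start in 5 genes and after it in Ifitm3, while Oasl2 and Irf7 have none.

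Isg15, on chromosome 4 (155573533 to 155574927, minus strand, mm9), had 0.124, 2.24 and 1.01 FPKM in the induced libraries of days 2, 4 and 6, against 0.197, 8.78 and 0.734 FPKM in control cells. The control library of day 4 stood above every other, and at days 2 and 6 the arms were close. In a mixed culture, fewer cells expressing a gene and less RNA per cell cannot be told apart. The differences were -0.09 at day 2, -1.59 at day 4 and 0.22 at day 6. With an annotated transcript of 756 bases the day 4 values correspond to an estimated 41 fragments with induction and 309 without, while at day 2 they rest on an estimated 2 and 5 fragments. In control cells the gene was higher by 3.03 at day 4 than at day 2, and day 6 minus day 4 was -2.50. The induced arm showed the same order of days, with 1.53 from day 2 to day 4 and -0.69 from day 4 to day 6.

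Usp18, on chromosome 6 (121195924 to 121220934, plus strand, mm9), had 0.151, 0.972 and 2.27 FPKM in induced cells and 0.0451, 5.77 and 1.17 FPKM in control cells. Control cells were highest at day 4, induced cells at day 6. The differences were 0.14, -1.78 and 0.59. An estimated 41 fragments in induced day 4 and 476 in control day 4 lie behind these values, and 87 and 51 in the induced and control libraries of day 6. In FPKM, the induced library had 0.168 times the level of control at day 4 and 1.93 times at day 6.

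The remaining members were the abundant membrane genes, weakly expressed antiviral effectors and the factor Irf7. Bst2 codes for tetherin, which holds budding viruses at the cell surface, and lies on chromosome 8 (74058163 to 74061336, minus strand, mm9). It had 46.6, 73.3 and 37.96 FPKM in induced cells against 69.0, 156 and 31.5 FPKM in control cells, differences of -0.56, -1.08 and 0.26. As with Isg15, control day 4 was the highest library and the arms crossed by day 6. Bst2 was the most abundant member at days 4 and 6 in both arms.

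Ifitm3 codes for a membrane protein that blocks the entry of viruses, and in the mouse it also marks early germ cells. It lies on chromosome 7 (148195485 to 148196669, minus strand, mm9). It had 29.1, 30.8 and 32.4 FPKM in induced cells, within 1.11-fold of each other, against 71.8, 47.6 and 22.7 FPKM in control cells. Control values were lower on each later day while the induced libraries were close to each other, so the differences were -1.28, -0.61 and 0.49. Its highest library was control day 2, unlike that of Isg15. Ifitm genes resemble each other in sequence, and the treatment of reads matching several genes is unknown, so the split between them is uncertain. The same holds for the Ifit and Oas families.

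Oasl2, a member of the oligoadenylate synthetase family that senses double-stranded RNA, lies on chromosome 5 (115346943 to 115362243, plus strand, mm9). It had 0.434, 0.993 and 0.597 FPKM in induced cells against 2.41, 3.83 and 0.169 FPKM in control cells. It was lower in induced cells by 1.25 at day 2 and by 1.28 at day 4. At day 6 both libraries were below 1 FPKM and the difference was 0.45.

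Ifit1, whose protein binds viral RNA ends, reached 1 FPKM in 1 library. It had 0.0704, 0.695 and 0.283 FPKM in induced cells against 0.319, 1.20 and 0.102 FPKM in control cells. Both arms were highest at day 4. Ifit3, a gene of the same family on chromosome 19, stayed at or below 0.199 FPKM, its value in control day 4, where an estimated 16 fragments were counted against at most 3 in any other library.

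Irf7, a factor that drives interferon genes, and Rsad2, the gene of the antiviral enzyme viperin, behaved differently. Irf7 had 0.320, 0.395 and 0.102 FPKM in induced cells against 0.0849, 0.149 and 0.0553 FPKM in control cells. Rsad2 had 0.329, 0.201 and 0.160 FPKM in induced cells against 0.110, 0.0865 and 0.0697 FPKM in control cells. On each day both were higher with induction, but no library reached 1 FPKM and the values rest on an estimated 3 to 21 fragments for Irf7 and 7 to 35 for Rsad2. Differences at that level are small on the scale used, at most 0.28 for Irf7 and 0.26 for Rsad2.

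**Figure D2:**
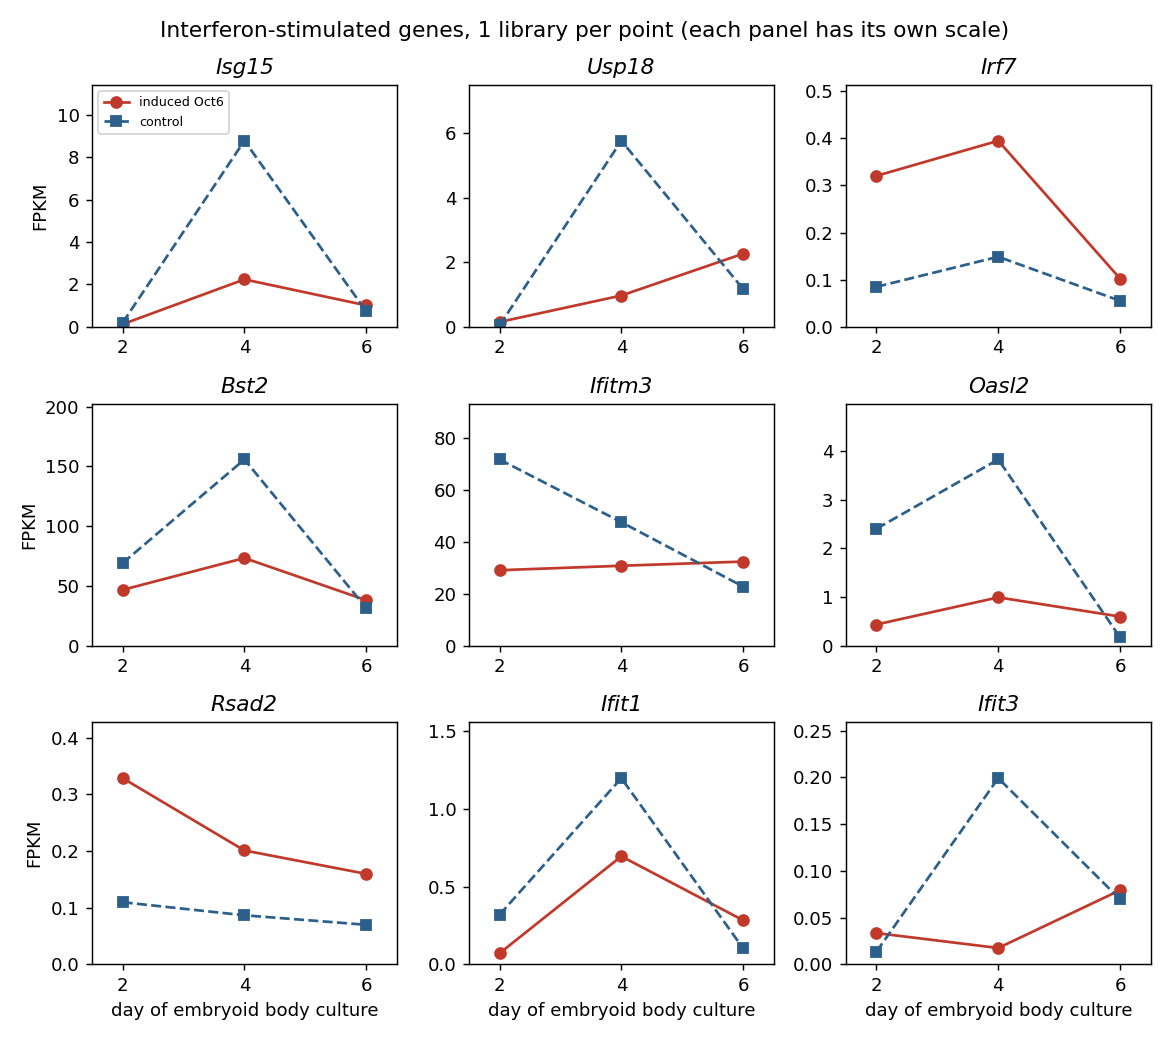
FPKM of the 9 members by day of culture, with 1 library per point, circles and solid lines for induced Oct6 and squares and dashed lines for control. Each panel has its own vertical scale from 0. Isg15, Usp18, Bst2, Oasl2, Ifit1 and Ifit3 are highest in control day 4, Ifitm3 in control day 2, and Irf7 and Rsad2 in an induced library.

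Counted by day, 3 members were at 1 FPKM or more in either library at day 2, 6 at day 4 and 4 at day 6. At day 2, 2 of the 3 were at least 2-fold lower in induced cells (Ifitm3 and Oasl2), where 1.83% of all 12586 genes were. Oasl2 reached 1 FPKM in the control library alone. A gene that passes this limit only in its higher library had to differ, so the counts of this kind are descriptions and support nothing. At day 4, 4 of the 6 were at least 2-fold lower (Isg15, Usp18, Bst2 and Oasl2), where 2.11% of 12678 genes were. That contrast chose the members, so the comparison is not read further. At day 6, 0 of the 4 were 2-fold lower, beside 2.1% of 12820 genes. No member was 2-fold higher on any day, where 9.72%, 6.09% and 3.37% of all genes were at days 2, 4 and 6. At day 6 all 9 members had a difference above 0, between 0.01 for Ifit3 and 0.59 for Usp18, with Ifit3 just below 0 after quantile normalisation. Of all genes at 1 FPKM or more that day, 59.3% were above 0, and 5 of the 9 members were below 1 FPKM in both libraries. The median over the 9 members was -0.09, -0.61 and 0.22 on the 3 days.

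**Figure D3:**
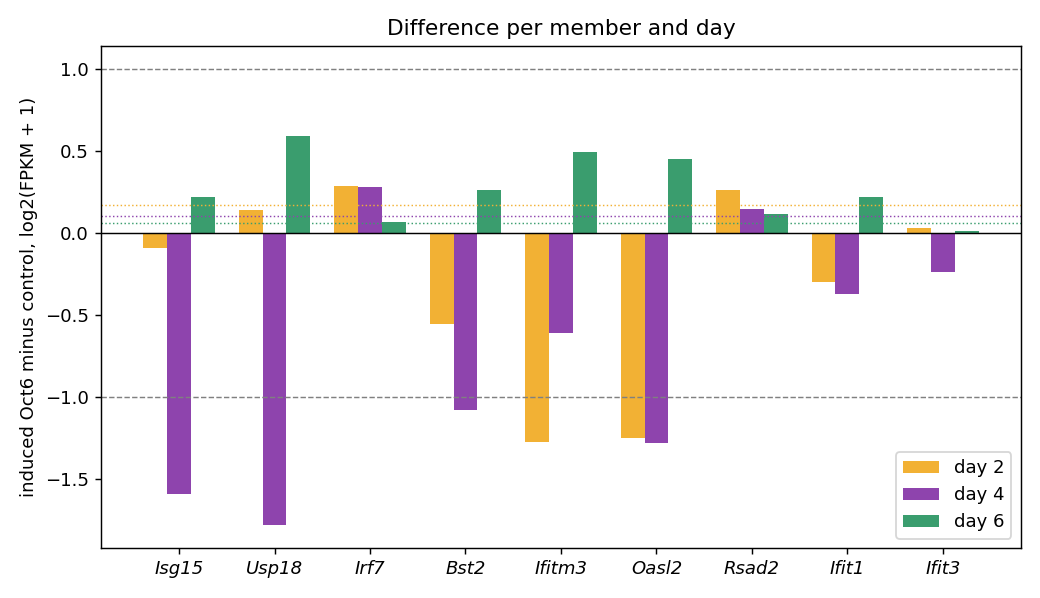
Induced Oct6 minus control on the scale log2(FPKM + 1), with 1 bar per member and day. Dashed lines mark 2-fold and dotted lines the median over all expressed genes of that day. The day 4 bars of Isg15 and Usp18 reach -1.59 and -1.78, and all day 6 bars lie above 0, although that of Ifit3 falls below it after quantile normalisation.

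The rule that chose the members did not use days 2 and 6, although the members were chosen with earlier results of these data known. Both days were tested together with limma, with day as a block, over 13661 genes at 1 FPKM or more in at least 1 library. Of the 9 members 6 entered this test, Ifit1 through control day 4 alone. None passed in either direction, and none had an unadjusted p under 0.05. Usp18 differed by 0.36 ± 0.29 (SE) between induced and control cells with an adjusted p of 0.681 in limma. For Ifitm3 the value was -0.39 ± 0.45 (adjusted p 0.762) and for Oasl2 -0.40 ± 0.49 (adjusted p 0.775). Isg15 stood at 0.06 ± 0.28 (adjusted p 0.942), Bst2 at -0.15 ± 0.24 (0.837) and Ifit1 at -0.04 ± 0.30 (0.969). Among all genes tested this fit called 0.0% in either direction, while 837 were higher and 229 lower at an unadjusted p under 0.05. The spread measured here is that of the effect between the 2 days, from 4 libraries with 1 residual degree of freedom. With all 3 days, of which day 4 chose the members, 0 of the 6 passed either, and limma then called 2 of all genes higher and 1 lower.

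The second coefficient of the fit compared day 6 with day 2 over both arms. Usp18 was higher at day 6 by 1.28 ± 0.29 (unadjusted p 0.0093, adjusted p 0.0881 in limma) and Bst2 lower by 0.70, or -0.70 ± 0.24 (unadjusted p 0.0401, adjusted p 0.153 in limma). Isg15 had 0.69 ± 0.28, with an adjusted p of 0.192 in limma. None of the 6 members passed, while 0.659% of all genes were called higher and 0.249% lower at day 6. The members did not share a direction over time, since Ifitm3 and Oasl2 stood at -0.73 ± 0.45 and -0.69 ± 0.49.

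Within the control arm, 3 members (Isg15, Usp18 and Bst2) were at least 2-fold higher at day 4 than at day 2, beside 9.63% of all genes, and 0 were 2-fold lower, beside 4.65%. From day 4 to day 6 of the control arm, 5 members (Isg15, Usp18, Bst2, Ifitm3 and Oasl2) were at least 2-fold lower, beside 2.97% of all genes, and 0 higher, beside 6.15%. Between days 2 and 6 of that arm 1 member (Usp18) was 2-fold higher, beside 17.2%, and 3 (Bst2, Ifitm3 and Oasl2) were lower, beside 6.73%. In the induced arm, 1 member (Isg15) was 2-fold higher at day 4 than at day 2, beside 2.73%, and 0 were lower, beside 2.36%. At day 6 against day 4 of that arm 0 members were higher, beside 2.98%, and 0 lower, beside 2.1%, and at day 6 against day 2 there was 1 higher (Usp18), beside 7.22%, and 0 lower, beside 5.35%. Members at 1 FPKM or more in either library numbered 6, 6 and 4 in the control comparisons, in the order given. In the induced ones they numbered 3, 4 and 4. Some passed only through their higher library and so had to differ, among them Isg15 in induced days 2 and 4 (0.124 and 2.24 FPKM). These comparisons share libraries with each other and with the day 4 contrast. Control day 4 alone carries the highest value of 6 of the 9 members, among them Ifit3, which stayed below 1 FPKM. That library is part of the contrast that chose the members. The share of all genes that are highest in it was not computed, so the count is a description only.

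Over the 6 libraries Isg15 had a Pearson correlation of 0.93 with Ifit1, 0.89 with Usp18, 0.82 with Ifit3 and 0.77 with Bst2, but 0.12 with Ifitm3, 0.07 with Irf7 and -0.39 with Rsad2. These points share arms and days and 1 library carries most of the range, so the values describe the pattern only. Among 5531 other genes with a range of at least 1, the 6 most like Isg15 were Mx2, an antiviral GTPase, with 0.996, followed by Jakmip1 (0.995), Mipep (0.990), Grin1 (0.988), Chst7 (0.984) and Igfbp3 (0.984). Mx2 had 0.0531, 0.655 and 0.439 FPKM in induced cells against 0.0871, 1.66 and 0.222 FPKM in control cells. Igfbp3, a secreted carrier of insulin-like growth factors, had 10.8, 60.1 and 21.7 FPKM against 10.1, 147 and 21.2 FPKM in control cells. Both were highest in control day 4, which follows from their choice by likeness to Isg15.

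The rest of the pathway was read from lists, starting with the interferons themselves. Of 12 interferon genes none reached 1 FPKM, and 7 were listed at 0 in all 6 libraries, among them Ifnb1. The highest summed level of the 12 was 0.302 FPKM, in control day 4, and in induced day 4 all 12 were listed at 0. The receptor genes were measured in every library. Ifnar1 and Ifnar2, the chains of the type I interferon receptor, had 15.7 and 7.93 FPKM in induced day 4, against 11.6 and 6.01 FPKM in control day 4. Ifngr1, a chain of the interferon gamma receptor, had 9.17, 12.5 and 9.27 FPKM in induced cells against 2.60, 6.66 and 5.92 FPKM in control cells. In the days 2 and 6 fit Ifngr1 differed by 1.03 ± 0.31, with an unadjusted p of 0.0265 and an adjusted p of 0.624 in limma. Il10rb, a chain shared with the interleukin 10 receptor, had 3.27 against 0.425 FPKM at day 2. Of 6 receptor genes 2 (Ifngr1 and Il10rb) were at least 2-fold higher at day 2 beside 9.72% of all genes, and 0 at days 4 and 6. The list medians were 0.66, 0.51 and 0.08, and 0.26, 0.39 and 0.02 after quantile normalisation.

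The signal transducers had medians of 0.73, 0.26 and 0.13 over 7 genes, and of 0.38, 0.09 and 0.05 after quantile normalisation. In induced day 4 Stat2, Irf9 and Jak1 had 4.42, 7.02 and 14.5 FPKM, against 6.58, 4.12 and 14.6 FPKM in control day 4. So at the time when Isg15 and Usp18 were lower in induced cells, the difference of Irf9 was 0.65. At day 2, Stat3 had 26.9 against 10.2 FPKM and Jak2 4.27 against 1.31 FPKM in control, which were the 2 transducers at least 2-fold higher on any day, beside 9.72% of all genes at day 2. After quantile normalisation 1 was past 2-fold, where the share of all genes was not computed. Of 6 genes that damp the signal, Ptpn6, a phosphatase, had 13.2 against 5.33 FPKM at day 2. It alone was 2-fold different, beside 9.72% of all genes higher at day 2, although none was after quantile normalisation. The feedback inhibitor Socs1 had 1.45, 1.70 and 1.13 FPKM in induced cells against 2.53, 2.91 and 1.21 FPKM in control cells. Their list medians were 0.21, -0.03 and -0.01, and those of days 4 and 6 were below 0 under both scalings as well.

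Among 12 genes that sense foreign nucleic acid, 9 reached 1 FPKM. Sting1 (Tmem173 in the table), the adaptor of cytosolic DNA sensing, had 4.42, 3.05 and 1.09 FPKM in induced cells against 0.401, 0.147 and 0.585 FPKM in control cells, differences of 1.95, 1.82 and 0.40. Of the 9 it alone was 2-fold different on any day. It was past that limit at days 2 and 4, where 9.72% and 6.09% of all genes were 2-fold higher. The list medians were 0.40, 0.03 and 0.20, and the first and second became -0.03 and -0.10 after quantile normalisation, and the second -0.04 under median ratio scaling. Irf1, a factor that responds to interferon gamma, was highest in control day 4, as Isg15 was, but already differed at day 2. It had 17.1, 28.0 and 12.6 FPKM in induced cells against 43.4, 78.8 and 10.9 FPKM in control cells, differences of -1.30, -1.46 and 0.19. Irf5 was higher at day 2, with 2.17 against 0.296 FPKM.

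Of 4 genes for enzymes that attach Isg15 to its targets, 3 were at 1 FPKM or more in at least 1 library, and 0 differed 2-fold on any day. Of all genes, 1.83%, 2.11% and 2.1% were 2-fold lower and 9.72%, 6.09% and 3.37% higher at days 2, 4 and 6. Under both scalings 1 of the 3 was 2-fold lower at day 4, where the share of all genes was not computed. Trim25, a ubiquitin ligase that can also attach Isg15, had 17.5, 10.3 and 7.49 FPKM in induced cells against 25.9, 21.0 and 12.2 FPKM in control cells. With induction it was lower on all 3 days, by 0.54, 0.96 and 0.64. The days 2 and 6 fit gave -0.59 ± 0.18, with an unadjusted p of 0.0278 and an adjusted p of 0.624 in limma. Uba7, the activating enzyme, was above 1 FPKM only in control day 6 (0.689 FPKM in induced and 1.01 in control cells) and differed by -0.11, -0.30 and -0.25. Herc6, a ligase for Isg15 in the mouse, stayed below 1 FPKM, was highest in control day 4 (0.323 FPKM in induced and 0.615 in control cells) and differed by -0.09, -0.29 and -0.21. The conjugating enzyme Ube2l6 differed by 0.26, 0.17 and -0.32.

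Beyond the 9 members, 32 further interferon-stimulated genes were listed, of which 24 reached 1 FPKM in at least 1 library. At day 4, 8 of these 24 were at least 2-fold lower in induced cells, beside 2.11% of all genes, and 0 higher, beside 6.09%. A difference below 0 was found in 22 of the 24 and in 37.9% of the 13661 genes held to the same limit, and the list median was -0.68. That contrast also chose the members. The 8 were Gbp2, Gbp3, Igtp, Parp9, Parp14, Dtx3l, Rtp4 and Trim30a, all named because of their values. Oas1a, Mx2, Gbp3, Isg20, Trim30a and Cxcl10 reached 1 FPKM in control day 4 alone, so the limit itself fixed the sign of their day 4 differences. The day 4 counts and median of this list are therefore descriptions and support nothing. Gbp2, a GTPase that attacks intracellular pathogens, had 3.24, 5.03 and 2.41 FPKM in induced cells against 3.23, 22.9 and 1.82 FPKM in control cells. Igtp, another interferon-inducible GTPase, had 0.689, 2.94 and 1.23 FPKM against 2.96, 11.1 and 1.37 FPKM. At day 2, 3 of the 16 at 1 FPKM or more were 2-fold lower, beside 1.83% of all genes, and 2 higher, beside 9.72%, and the median over the 24 was -0.10. Median ratio scaling gave 3 lower, 1 higher and a median of -0.19, and quantile normalisation 4 lower, 0 higher and a median of -0.41. The shares of all genes under these scalings were not computed, so these counts are descriptions only. Zc3hav1, the antiviral zinc finger protein ZAP, was among the higher ones with 2.79 against 0.619 FPKM. At day 6, 0 of 16 differed 2-fold in either direction and the median was 0.04, which was -0.06 on quantile-normalised values and -0.0021 on median ratio scaled ones. Limma called 0 of the 24 between the arms at days 2 and 6, and 1 had an unadjusted p under 0.05.

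Ifitm1 and Ifitm2, neighbours of Ifitm3, shared with it a difference below 0 at day 2 and above 0 at day 6. Ifitm1 had 47.1, 135 and 171 FPKM in induced cells against 68.0, 107 and 101 FPKM in control cells, differences of -0.52, 0.34 and 0.76. Ifitm2 had 150, 199 and 233 FPKM in induced cells against 162, 191 and 198 FPKM in control cells, differences of -0.11, 0.06 and 0.24. Both were higher at day 6 than at day 2 in both arms, whereas Ifitm3 was at its lowest in control day 6. Ifit2, of the Ifit family, had 1.38, 1.43 and 1.67 FPKM in induced cells against 1.25, 1.51 and 2.04 FPKM in control cells and showed no day 4 maximum.

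**Figure D4:**
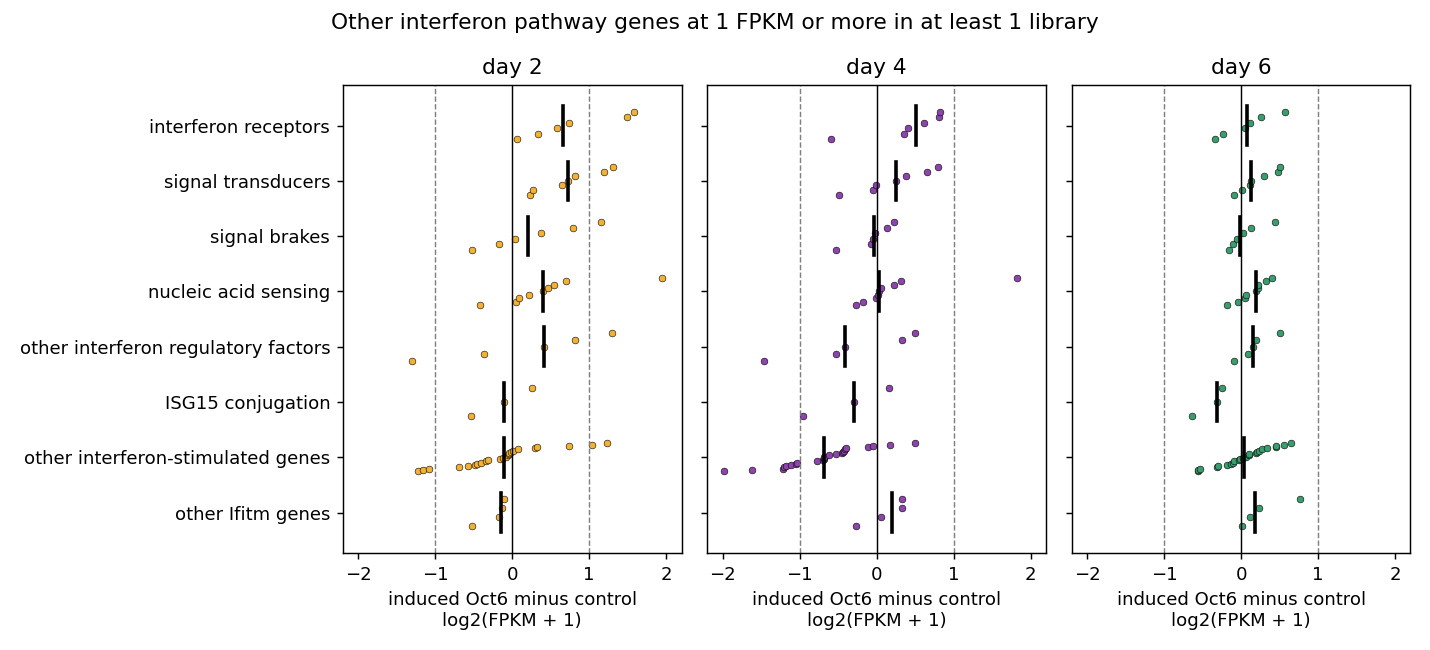
Induced Oct6 minus control on the scale log2(FPKM + 1) for other genes of the interferon pathway by day, with 1 point per gene and a black bar at the list median. Dashed lines mark 2-fold. The other interferon-stimulated genes have a median of -0.68 at day 4, and -0.10 and 0.04 at days 2 and 6, while receptors have medians of 0.66, 0.51 and 0.08.

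Markers of other cell types were set beside these values. The 10 visceral endoderm markers summed to 9.54, 32.4 and 43.8 FPKM in induced cells against 38.8, 174 and 214 FPKM in control cells. The sum was lower in induced cells on all 3 days, and 7, 10 and 9 of the 10 markers had a difference below 0 at days 2, 4 and 6. Of the 13661 genes at 1 FPKM or more in at least 1 library, 35.3%, 37.9% and 40.3% were below 0. At day 2, 5 of the 10 markers were at 1 FPKM or more in either library. Their part in the day 4 result was not tested. The 10 fibroblast and feeder markers summed to 111, 45.6 and 43.7 FPKM in induced cells against 16.9, 11.1 and 118 FPKM in control cells, with the collagen gene Col1a2 at 80.2 against 1.76 FPKM at day 2. Of the 9 such markers at 1 FPKM or more in at least 1 library, 1, 2 and 7 had a difference below 0 at days 2, 4 and 6. Of the 6 tested at day 4, 3 were at least 2-fold higher in induced cells, beside 6.09% of all genes. Only 1 was 2-fold lower, beside 2.11%. It was Thy1, named here because of its value, with 2.15 FPKM in induced day 4 and 5.87 FPKM in control day 4, its highest library. The part of feeder cells in the members' values was not tested. The 10 leukocyte markers summed to 4.05 to 6.25 FPKM in induced and 3.97 to 8.29 FPKM in control cells. Most of this was Cd68, with 3.25 FPKM in induced day 4 and 5.32 FPKM in control day 4. Ptprc, which marks all leukocytes, was at 0.0426 FPKM or less in every library. The endothelial markers summed to 26.7, 7.01 and 16.8 FPKM in induced cells against 15.5, 9.67 and 56.5 FPKM in control cells. Cd34 had 16.9 FPKM in induced and 3.78 FPKM in control day 2, and Kdr 0.834 and 6.97 FPKM at day 4. Of the 8 endothelial markers, 5, 3 and 8 had a difference below 0 at days 2, 4 and 6. The germ cell markers summed to 42.2, 54.6 and 41.7 FPKM in induced cells against 28.8, 40.7 and 32.2 FPKM in control cells.

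**Figure D5:**
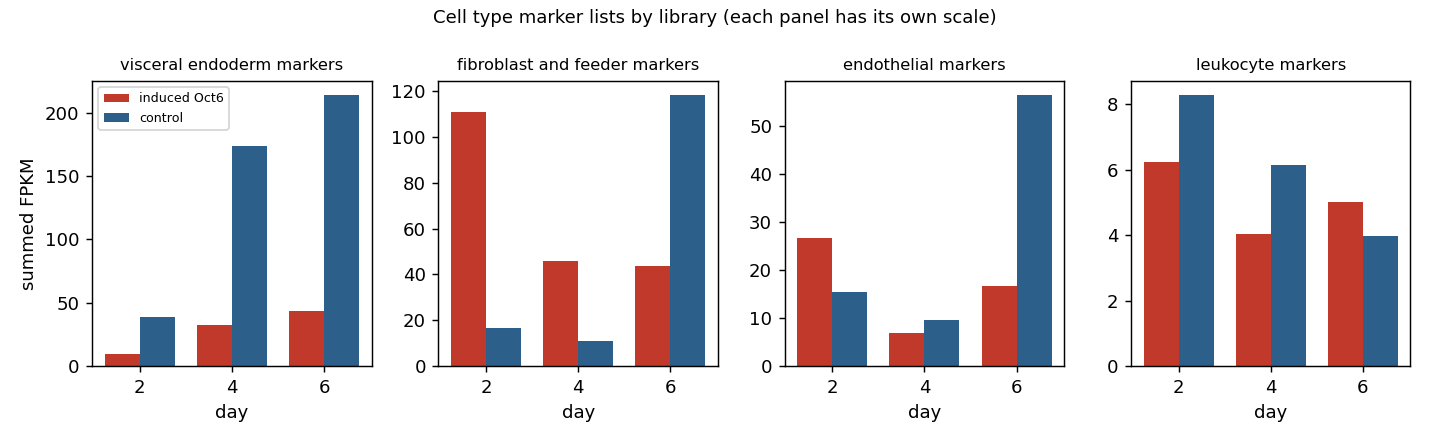
Summed FPKM of marker lists by day, with induced Oct6 bars left of control bars, 1 library per bar and its own scale in each panel. The visceral endoderm sum is lower in induced cells on all 3 days (32.4 against 174 FPKM at day 4), and leukocyte markers stay at or below 8.29 FPKM.

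The deposited Oct6 peaks of day 4 were compared with the member genes by position. Of 7979 peaks none had its centre within 10 kb of the start of any of the 9 genes, where 17.9% of 13399 expressed and annotated genes had one. Within 50 kb, 4 members had a peak (Irf7, Bst2, Ifitm3 and Ifit3), where 39.0% of expressed genes did. Irf7, Rsad2 and Ifit3 reached 1 FPKM in no library, so they are not among those expressed genes. The peak nearest to Bst2 lay 33.2 kb from its start, on the upstream side (74094460 to 74094592 on chromosome 8, mm9), with the authors' score of 16.5 against a median score of 11.4 over all peaks. Other peaks lay nearest to Isg15 and Usp18, at 90.7 and 368 kb from their starts. For Ifit1 and Ifit3, which are neighbours on chromosome 19, the same peak was nearest, at 32.9 kb from the start of Ifit3, the shortest distance among the 9. The peaks come from 1 ChIP library, and distance alone does not link a peak to a gene.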

How the data were processed

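RNA-seq libraries of 6 groups (2 arms, 3 days, 1 library each) and 1 list of Oct6 peaks were used, with groups and days taken from the sample titles. The tools named are HOMER, Cuffdiff, Cufflinks 1.3.0 and TopHat 1.4.1, with build mm9, per the submitters' processing notes. The authors deposited FPKM values for 22558 gene symbols, and a peak list with a score per peak of unstated scale. For strand, multi-mapping and annotation no statement was found. Older symbols were matched through a separate list of aliases and, where that gave no match, through RefSeq synonyms. Peaks were placed against GENCODE vM1 gene starts on NCBIM37, the assembly of mm9, while promoter windows are RefSeq's on GRCm38.p6.

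Values were taken as log2(FPKM + 1). limma 3.58.1 in R 4.3.3 (lmFit, eBayes with trend, Benjamini-Hochberg adjustment, threshold 0.05) was fitted on all genes at 1 FPKM or more in at least 1 library, with arm and day as terms, on the 4 libraries of days 2 and 6. It was tested on simulated data. Depth came from the most frequent ratio among genes below 0.3 FPKM, and estimated fragments from the longest annotated transcript, so they are approximate and cover counting error only. The members and lists were chosen with earlier results of these data known. Named genes were the members, per list up to 3 genes of greatest difference, some fixed receptors, transducers and family members, and the 6 genes most like Isg15. Of these, not every one is described. Alternatives changed the pseudocount, scaling, filter, trend, days, fold, peak window and score, and motif core. Python 3.11.15, numpy 2.4.6, pandas 2.3.3 and matplotlib 3.10.9 were used.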

Additional observations from a re-analysis of the deposited data

Results flagged for a closer look

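In 5 members the difference between induced and control cells was at least 2-fold on at least 1 day and of the other sign on another. The share of all genes that meet this rule was not computed, so the count is a description only. Each arm and day has 1 library, and the change between days was not tested. Isg15 stood at -1.59 at day 4 and 0.22 at day 6. Usp18 stood at -1.78 at day 4 and 0.59 at day 6. Bst2 stood at -1.08 at day 4 and 0.26 at day 6. Ifitm3 stood at -1.28 at day 2 and 0.49 at day 6. Oasl2 stood at -1.28 at day 4 and 0.45 at day 6, when both of its libraries were below 1 FPKM. The day 4 values of Isg15 and Usp18 chose the members.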

How the results depend on the processing

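Counts of members at least 2-fold lower stayed at 2, 4 and 0 at days 2, 4 and 6 with a pseudocount of 0.1, with either scaling and without a filter, and a 1.5-fold limit gave 5 at day 4. That limit also gave 1 member, Usp18, higher at day 6. The shares of all genes past these limits were not computed under the alternatives. Of 81 recomputed day differences of members, 10 moved by more than 1.5-fold, all with the pseudocount of 0.1. The limma test of days 2 and 6 called 0 members under each alternative and 0 genes between the arms, except that all 3 days together called 2 higher and 1 lower. Isg15 between the arms became -0.0459 after quantile normalisation and -0.49 with all 3 days, and Usp18 -0.35 with all 3 days, which adds the day that chose them. Ifit1 between days 6 and 2 became -0.0299 under median ratio scaling and, quantile normalised, -0.0785. The counts of all genes higher and lower at day 6 against day 2 were 90 and 34. They became 1 and 0 with the pseudocount of 0.1, 132 and 84 under median ratio scaling, and 1572 and 820 with all 3 days. They were 0 and 0 after quantile normalisation, without a filter and without a trend. The cause of these shifts was not tested. A window of 50 kb gave 4 members with a peak in place of 0. Apart from the limma test, which pairs the arms by day, no paired analysis was possible because each arm and day has 1 library. With 1 library per arm and day, day 4 differences have no error, and members below 1 FPKM rest on few fragments.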
